A study of Schizosaccharomyces pombe with 16 samples.

Results

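The RNA recovered with TAP-tagged Zfs1 was compared with the total RNA of the extract it came from, across all measured transcripts of fission yeast (Schizosaccharomyces pombe). The comparison uses 6 of the 16 libraries of the series: 3 Zfs1 IPs (RNA captured with the tagged protein) and their 3 inputs, paired by experiment number. The tested strain carried zfs1-TAP::kanMX6, with the tag fused to zfs1 at its own locus, in an h− background. The mock strain carried leu1Δ::[Pnmt1-gfp-TAP ura4+] with ura4-D18 in an h+ background, so that GFP-TAP was driven by the thiamine-repressible nmt1 promoter, and it gave 3 GFP IPs and 3 inputs. Mating type and auxotrophic markers therefore differ between the Zfs1 and the GFP strain, and their part in any difference between the 2 IPs cannot be told apart from the bait. The last 4 libraries are total RNA of a zfs1Δ strain and of wild type, 2 each, and are used here only beside the IP. Every culture was in exponential growth in the minimal medium EMM, at 25°C. The question was which classes of RNA Zfs1 carries with it and which it leaves behind.

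Zfs1 belongs to the CCCH tandem zinc-finger proteins, a family known in animals from tristetraprolin. These proteins bind AU-rich elements (AREs), short U- and A-rich stretches usually found in the 3′ UTR, and recruit the machinery that shortens the poly(A) tail, which shortens the life of the mRNA. In fission yeast Zfs1 is known for its role in mating, the step by which starved cells of opposite mating type leave the cell cycle, fuse and enter meiosis.

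The element searched for was TTATTTATT, written as DNA, on the sense strand of each annotated transcript. Of the 15 transcripts with the highest IP/input ratio among those with at least 100 CPM in the IP (counts relative to the library total), 10 carried at least 1 copy. The windows below show copies in transcripts that the results return to, together with the element of zfs1 itself. They run 5′ to 3′ along the RNA with the element in capitals and 10 flanking bases on each side, and the positions are those of the 9 capital bases in the RefSeq sequence ASM294v3.
arz1, 3′ UTR, chromosome III, 2326735 to 2326743, plus strand: ttattgctaaTTATTTATTttttcgatta
arz1, 3′ UTR, chromosome III, 2326865 to 2326873, plus strand: agtttcatccTTATTTATTaccattaatt
cdr1, 5′ UTR, chromosome I, 2682234 to 2682242, minus strand: tacatattatTTATTTATTcattcatctt
ctu2, 5′ UTR, chromosome II, 1702044 to 1702052, minus strand: tctcttaaacTTATTTATTtatacggata
SPAC1B3.15c, 5′ UTR, chromosome I, 4957901 to 4957909, minus strand: tttacattgaTTATTTATTtttggatcta
pyp2, coding exon, chromosome I, 5203155 to 5203163, plus strand: ccaaaaaaatTTATTTATTaagcaatgga
cbf12, 3′ UTR, chromosome III, 1874785 to 1874793, plus strand: actactgtgtTTATTTATTactacaactt
sul1, 3′ UTR, chromosome II, 1884293 to 1884301, minus strand: acatatttatTTATTTATTttgcatatta
puc1, 5′ UTR, chromosome II, 3701589 to 3701597, minus strand: agcgacaactTTATTTATTgcttggtacg
puc1, coding exon, chromosome II, 3700017 to 3700025, minus strand: tgctgaggatTTATTTATTcgtatggaac
puc1, 3′ UTR, chromosome II, 3699317 to 3699325, minus strand: tatatttttgTTATTTATTtatatgatac
zfs1, 5′ UTR, chromosome II, 3486762 to 3486770, minus strand: tatttgggatTTATTTATTtttatttcct
zfs1, 3′ UTR, chromosome II, 3483209 to 3483217, minus strand: actttattctTTATTTATTtgatgacctt

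The values are the authors' normalized read counts, here divided by a factor for each library that sets the medians of the 6 libraries equal (scaled counts). Ratios are given as log2 of the scaled count plus 1 in the IP over that in the input, as the mean ± SD of the 3 experiments. The normalized totals were between 9852507 and 13265392 in the IPs and between 8568084 and 72878501 in the inputs. The largest total, that of input 1, was 72.1% ribosomal RNA, against at most 4.74% in the other 5 libraries, which is why the libraries were centred on their medians. Across the 4870 transcripts with at least 10 CPM (the count relative to the library total), Pearson's r between the ratios of 2 experiments was 0.81 (experiments 1 and 2), 0.85 (1 and 3) and 0.93 (2 and 3). Genes are not independent replicates, and these coefficients describe the transcripts only.

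Of 5929 transcripts tested, 1679 (28.3%) were higher and 2092 (35.3%) were lower in the Zfs1 IP than in the input at a limma adjusted p-value under 0.05. At least 2-fold differences were called for 1301 transcripts that were higher (21.9%) and 1434 that were lower (24.2%), and 1292 and 1430 of these had the same sign in all 3 experiments. Over all tested transcripts 4707 (79.4%) had the same sign in all 3. The calls were made on these same experiments, so the agreement among called transcripts is no separate evidence. The balance of the calls depended on the scaling. It was 950 higher and 188 lower when every library was set to an equal total, ribosomal RNA included, and 1537 higher and 2341 lower when the totals left ribosomal RNA out. No transcript called after median centring was called in the opposite direction by either of them. The median ratio over all tested transcripts was −0.22, with quartiles at −1.04 and 0.93, and the class medians below are read against it. In the GFP IP 603 of 5887 transcripts (10.2%) were higher and 231 (3.92%) lower than in the GFP input, and without experiment 3 no transcript passed. The SD of the ratios over transcripts was 1.58 for Zfs1 and 1.06 for GFP. A contrast over all 12 RIP libraries called 1201 of 5933 transcripts (20.2%) as more enriched with Zfs1 than with the mock bait and 1579 (26.6%) as less enriched. Among the transcripts called at least 2-fold in the Zfs1 IP, 995 of 1301 higher ones and 946 of 1434 lower ones also differed from the GFP IP in the same direction.

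The plot of class medians sets the groups of transcripts side by side. The groups were formed from identifiers, gene symbols or product names in the annotation and overlap in part.

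**Figure D1:**
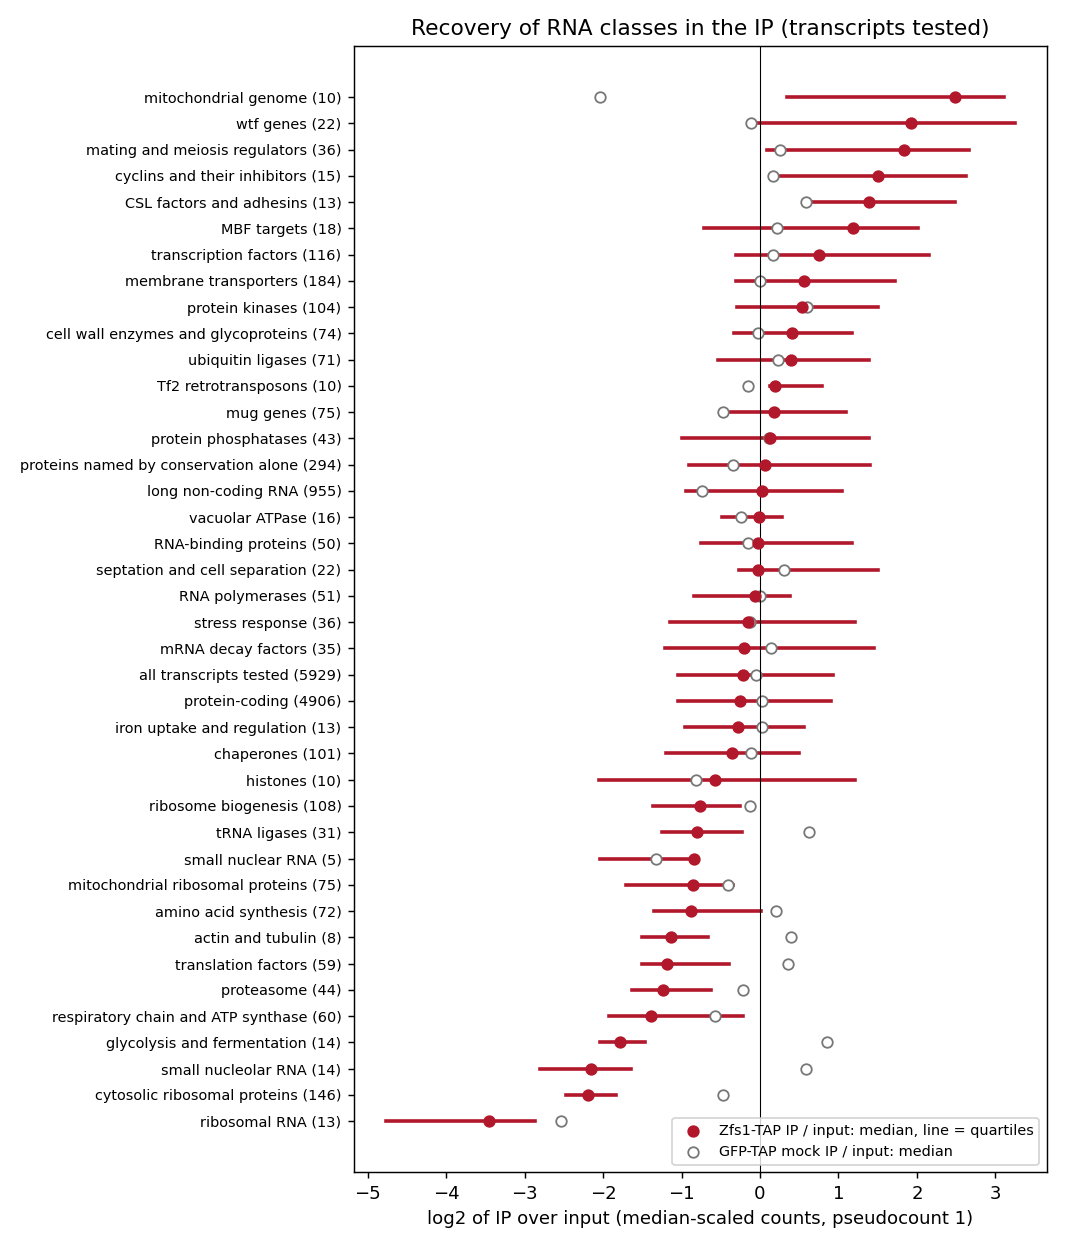
Median log2 of IP over input by class, with the number of transcripts tested in brackets: filled points are the Zfs1-TAP IP with lines between the quartiles, open points the GFP-TAP mock IP. Zfs1 medians run between −3.45 for ribosomal RNA and 2.48 for transcripts of the mitochondrial genome, and the medians of all 5929 transcripts are −0.22 for Zfs1 and −0.05 for GFP.

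Among transcripts with at least 100 CPM in the IP and reads in every input, the most enriched mRNA was that of mug9. This gene, upregulated in meiosis, was followed by arz1, annotated as an armadillo-repeat target of Zfs1. The mug9 mRNA had only 14.3, 27 and 32 scaled counts in the inputs. Its log2 ratio was 5.97 ± 0.69 in the Zfs1 IP and 2.11 in the GFP IP. The difference, Zfs1 minus GFP, was 3.84 for mug9 and 5.49 for arz1. The arz1 mRNA had 25615, 22008 and 12151 scaled counts in the Zfs1 IPs, against 542, 450 and 408 in the inputs. Its log2 ratio was 5.35 ± 0.40 (SD, n = 3; limma adjusted p = 2.52e-05) in the Zfs1 IP and −0.15 in the GFP IP. The ecl3 mRNA, of a small protein family that prolongs chronological lifespan, had 2343, 2927 and 2686 scaled counts in the IPs and 82.2, 54.5 and 71.6 in the inputs, a log2 ratio of 5.25 ± 0.45 (n = 3; limma adjusted p = 2.52e-05). It carried no copy of the element in its annotated transcript, whose 3′ UTR is given a length of 0. The cdr1 mRNA encodes a kinase that promotes entry into mitosis by inhibiting Wee1. It had 16879, 29468 and 28259 scaled counts in the IPs and 494, 723 and 805 in the inputs. Its log2 ratio was 5.19 ± 0.14 (n = 3; limma adjusted p = 2.52e-05), and it holds 2 overlapping copies in its 5′ UTR, of 861 bases.

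Several highly enriched mRNAs encode transporters and signalling proteins. The sul1 mRNA, for a sulfate transporter, reached 76468, 88731 and 44414 scaled counts in the IPs, against 2040, 3156 and 2556 in the inputs (log2 ratio 4.72 ± 0.56, n = 3). SPAC1B3.15c, annotated as a vitamin H transporter, had 4040, 10909 and 9764 in the IPs and 186, 339 and 322 in the inputs (4.78 ± 0.31). The pyp2 mRNA, for the tyrosine phosphatase that inactivates the stress MAP kinase Sty1, had 3580, 4803 and 3611 in the IPs and 149, 148 and 134 in the inputs (4.78 ± 0.22). In each of these the lowest IP value lay above the highest input value. The cbf12 mRNA, for a CSL-family transcription factor of cell adhesion with 3 copies of the element in its 3′ UTR, had 13836, 15144 and 9488 in the IPs and 494, 424 and 458 in the inputs (4.78 ± 0.39). The others among the highest 15 were ctu2 (tRNA thiolation), oxr1 (disassembly of the vacuolar ATPase), ppk1 (a protein kinase), rhp42 (DNA repair) and rec10 (meiotic chromosome axis), with log2 ratios between 4.56 and 4.89, and the non-coding SPNCRNA.1197. The limma adjusted p was at most 0.000103 for every one of the highest 15. These transcripts were picked for a high ratio, a passing call and one sign in all experiments. Their gaps between IP and input and their p-values are therefore no separate evidence.

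The zfs1 mRNA itself was enriched, with 7673, 11913 and 8317 scaled counts in the IPs and 1031, 1734 and 1826 in the inputs. The log2 ratio was 2.62 ± 0.38 (n = 3; limma adjusted p = 6.8e-05), against 0.28 in the GFP IP. The annotated zfs1 transcript carries 1 copy of the element in each UTR, and its 5′ UTR has 2778 bases. In the strain used, zfs1 carries a C-terminal TAP tag. Whether the tagged mRNA keeps the copy in the 3′ UTR was not tested. The mRNA of puc1, the G1 cyclin that opposes exit into differentiation, had 6263, 4869 and 6150 scaled counts in the IPs and 259, 296 and 291 in the inputs. That is a log2 ratio of 4.34 ± 0.28 (n = 3; limma adjusted p = 2.52e-05), against 0.24 in the GFP IP.

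**Figure D2:**
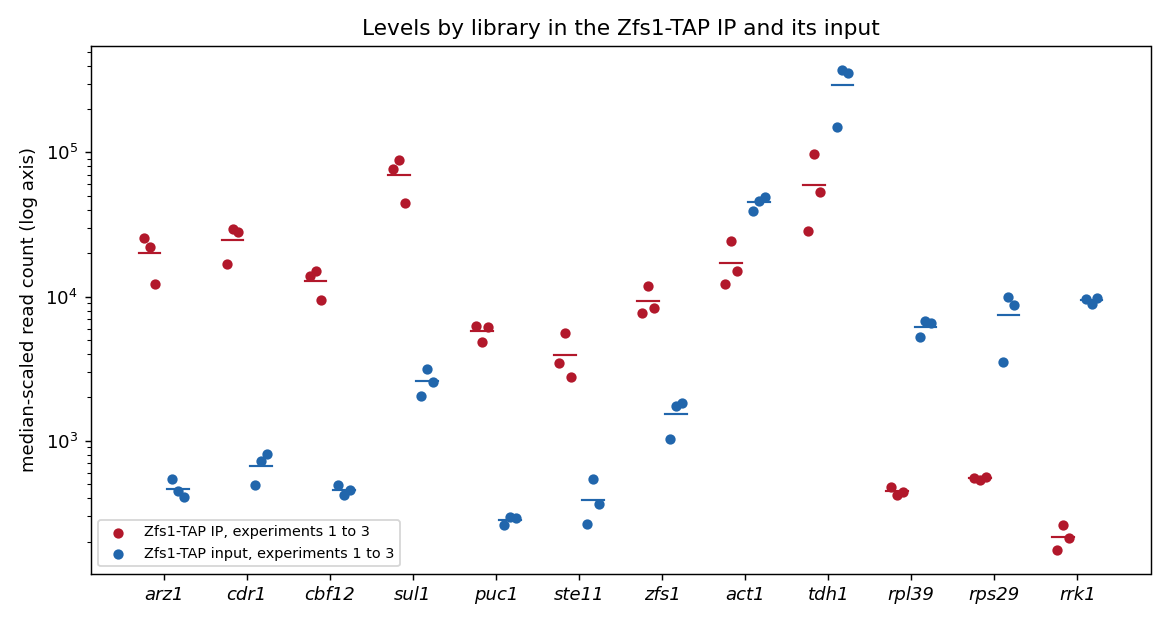
Median-scaled read counts (log axis) of 12 transcripts in each Zfs1-TAP IP library (left points) and each input library (right points), with lines at the means. For arz1, cdr1, cbf12, sul1, puc1, ste11 and zfs1 every IP value lies above every input value, and for act1, tdh1, rpl39, rps29 and rrk1 every IP value lies below. Of these arz1, cdr1, cbf12, sul1, rpl39, rps29 and rrk1 were picked by their ratios.

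Some transcripts have no ratio. The hem14 transcript (protoporphyrinogen oxidase, a heme synthesis enzyme) was listed at 0 in all 3 inputs and had 1205, 1759 and 1595 scaled counts in the IPs. In all, 9 transcripts called at least 2-fold higher were listed at 0 in every input, among them SPNCRNA.1083, lsg1 and cwg2, and 7 called at least 2-fold lower were listed at 0 in every IP, among them asn2, mrp20 and cdm1. Those named were chosen after their values were seen, and no size is given for them.

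Regulators of mating and meiosis, a list that counts zfs1, the gene of the bait, among its higher members, stood high in the IP. Of 36 tested of 39 listed, 26 were higher and 2 lower, with a median log2 ratio of 1.83 in the Zfs1 IP and 0.25 in the GFP IP, and 19 were enriched more than in the GFP IP. The shares over all transcripts were 28.3% higher, 35.3% lower and 20.2% enriched more than in the GFP IP. The pat1 mRNA, for the kinase that holds meiosis back in growing cells, had 6761, 5836 and 3748 scaled counts in the IPs against 145, 398 and 301 in the inputs (log2 ratio 4.35 ± 1.04, n = 3). The gpa2 mRNA, for the G protein α-subunit of glucose signalling, had 16963, 15595 and 20036 in the IPs against 891, 1030 and 1217 in the inputs (4.07 ± 0.17). The ste11 mRNA, for the transcription factor that starts the mating programme, had 3474, 5571 and 2761 in the IPs and 267, 543 and 364 in the inputs (3.33 ± 0.39). All 3 ratios passed at a limma adjusted p of at most 8.86e-05, and the groups did not overlap. Neither pat1 nor ste11 carries the element in its annotated transcript. The 5′ UTR of pat1 is given a length of 0 there, so none was searched. Among the others, mei4, sxa1, spk1, pcr1, pka1, csx1, atf1 and nrd1 had log2 ratios between 2.45 and 3.44. The mRNA of mei2, the RNA-binding protein that switches on meiosis, had a ratio of 1.18. Its GFP ratio was 0.60, and the 2 enrichments did not differ by the contrast (limma adjusted p = 0.137). The 2 lower members were ras1 (−3.70), the GTPase of the pheromone pathway, and mfm2 (−1.78), a precursor of the M-factor pheromone. The IPs had 105, 4.5 and 18.8 scaled counts for ras1, and 552, 44.3 and 147 for mfm2.

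Cyclins and their partners showed a similar shift. By the contrast with the GFP IP, 7 of the 15 tested were enriched more and 1 less (20.2% and 26.6% over all transcripts). Against the input 11 were higher and none lower (28.3% and 35.3% over all transcripts). The class median was 1.50 in the Zfs1 IP and 0.17 in the GFP IP. The other 4 (clg1, pch1, rum1 and rem1) had log2 ratios between −0.43 and 0.04 and did not pass, at limma adjusted p-values between 0.147 and 0.976. Behind puc1 came pas1, a cyclin that acts with the kinase Pef1, with 84191, 31195 and 16901 in the IPs and 3479, 3497 and 2758 in the inputs (3.46 ± 1.02, n = 3). The IP values of pas1 were unequal, with experiment 1 the highest, yet all were above the inputs. The mitotic cyclin cdc13 differed little, with 3662, 4060 and 5512 in the IPs against 2806, 3209 and 3331 in the inputs (0.48 ± 0.21; limma adjusted p = 0.0445). Its GFP ratio was 0.54, and the 2 enrichments did not differ by the contrast (adjusted p = 0.825). The cdc2 mRNA, for the cyclin-dependent kinase, had 2136, 1424 and 1551 in the IPs and 644, 581 and 557 in the inputs (1.50 ± 0.22). With the values as deposited cdc2 kept this direction and did not pass (1.27, limma adjusted p = 0.21).

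Protein kinases, phosphatases, transcription factors and ubiquitin ligases, which sense, relay and end signals, had more members higher than lower in the IP after median centring. The shares over all transcripts were 28.3% higher and 35.3% lower. Of 116 transcription factors 64 were higher and 20 lower (median 0.75), of 104 protein kinases 51 and 14 (median 0.53), of 71 ubiquitin ligases 35 and 19 (median 0.39), and of 43 protein phosphatases 17 and 16 (median 0.13). With the values as deposited 28 transcription factors and 18 kinases passed as higher. The median of the phosphatases was −0.10 with the values as deposited and −0.01 with equal totals without ribosomal RNA, so that no direction can be given for that group. The kinases also stood high in the GFP IP, with a median of 0.60, and 29 of the 104 were enriched more and 26 less than there. Those counts were 47 and 18 for transcription factors, 19 and 14 for ubiquitin ligases and 15 and 13 for phosphatases. Over all transcripts the contrast called 20.2% as more and 26.6% as less enriched. The slp1 mRNA, for the activator of the anaphase-promoting complex, had 9831, 29489 and 25599 scaled counts in the IPs against 1078, 1552 and 1692 in the inputs (log2 ratio 3.78 ± 0.54, n = 3). The mik1 mRNA, for a kinase that restrains mitosis by phosphorylating Cdc2, had 2201, 4813 and 5633 in the IPs against 324, 305 and 340 in the inputs (3.59 ± 0.72). The cdc25 mRNA, for the phosphatase that reverses this, had 7909, 6094 and 3215 in the IPs against 700, 787 and 816 in the inputs (2.81 ± 0.77). So mRNAs of activators and of inhibitors of mitosis were both among the enriched ones, at limma adjusted p-values of at most 0.000198. The lower members included taf7, taf10 and taf12, for subunits of the general transcription factor TFIID (−1.26, −1.13 and −1.09), and skp1, for a subunit of the SCF ubiquitin ligase (−1.91).

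Membrane and cell surface proteins leaned the same way. Of 184 membrane transporters 89 were higher and 34 lower (median 0.56), and of 74 cell wall enzymes and glycoproteins 35 were higher and 15 lower (median 0.41). Among the CSL factors and adhesins, the family of cbf12 and the flocculins, 10 of 13 were higher and 1 lower. The class median was 1.39, against 0.58 in the GFP IP, and 5 members were enriched more and 2 less than there. Over all transcripts tested 28.3% were higher and 35.3% lower. The pfl4 mRNA, for a flocculin that makes cells stick together, had 4072, 10295 and 8216 scaled counts in the IPs and 340, 555 and 522 in the inputs (3.92 ± 0.32, n = 3; limma adjusted p = 2.58e-05). The mRNA of cbf11, the other CSL factor, had 978, 1051 and 1047 in the IPs and 1264, 1205 and 1236 in the inputs (−0.27 ± 0.09; limma adjusted p = 0.173), so the pair of related factors stood far apart. Of the wtf genes, a family of meiotic drivers (poisons and antidotes of spores), 13 of 22 were higher and 2 lower, with a median of 1.92 in the Zfs1 IP and −0.12 in the GFP IP. The copies of that family are nearly alike in sequence, so the split of reads between them is uncertain. Of the 18 targets of MBF, the transcription factor complex of G1/S genes, 10 were higher and 5 lower (median 1.19).

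Ribosomal protein mRNAs had the largest share of lower members of all classes listed. Of the 146 tested, 141 were lower and 1 was higher (35.3% and 28.3% over all transcripts). The class median was −2.19, with quartiles of −2.47 and −1.84. The medians in the 3 experiments were −1.83, −2.24 and −2.59. With every library at an equal total 61 passed as lower. In the GFP IP the median was −0.47, and 135 of the 146 were enriched less in the Zfs1 IP than there (26.6% over all transcripts). The rpl39 mRNA (60S protein L39) had 477, 420 and 443 scaled counts in the IPs, against 5287, 6740 and 6527 in the inputs (log2 ratio −3.78 ± 0.28, n = 3; limma adjusted p = 2.58e-05). The rps29 mRNA had 551, 536 and 560 in the IPs against 3540, 10021 and 8767 in the inputs (−3.62 ± 0.83). For both, every IP value lay far below every input value. The single higher member was rpp1 (1.30), which the list caught by its symbol and whose product is a subunit of RNase P and RNase MRP, not of the ribosome. The 4 members that did not pass were rpp21, of the same 2 enzymes, rps1202, rpl1601 and rpl3002. Most ribosomal proteins are encoded by 2 or 3 nearly identical genes, and values of single copies are uncertain for that reason.

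The rest of the protein synthesis machinery was depleted to a smaller degree. The shares over all transcripts were 35.3% lower and 28.3% higher. Of 59 translation factors 43 were lower and 6 higher (median −1.18), of 31 tRNA ligases 20 and 2 (median −0.80), of 108 ribosome biogenesis transcripts, some of them small nucleolar RNAs, 64 and 9 (median −0.77) and of 75 mitochondrial ribosomal proteins 43 and 9 (median −0.85). The tif512 mRNA, for eIF5A, had 1765, 2626 and 1962 scaled counts in the IPs and 10876, 19103 and 18125 in the inputs (−2.90 ± 0.29, n = 3). The int6 mRNA, for a subunit of eIF3, had 1751, 1895 and 1507 in the IPs and 6373, 7189 and 7148 in the inputs (−2.01 ± 0.21). The 6 higher members of the translation group included dom34 and hbs1 (1.52 and 1.50), which rescue stalled ribosomes, and the eIF2 kinases hri2 and gcn2 (1.32 and 1.21), which the list caught by the name of their substrate. Their GFP ratios were 0.83, 0.65, 0.94 and 0.83. Of these hbs1 differed from the GFP IP (limma contrast adjusted p = 0.0202), while dom34, hri2 and gcn2 did not (0.171, 0.281 and 0.357). Of the 59 translation factors 3 were enriched more and 36 less than in the GFP IP. Of the 2 higher tRNA ligases msm1 charges tRNA(Met) and holds the element in its coding sequence, with 1496, 1888 and 1875 in the IPs against 519, 560 and 598 in the inputs (1.64 ± 0.11). The most enriched mitochondrial ribosomal protein mRNA was mrpl27, with 1259, 1690 and 1167 in the IPs against 109, 124 and 121 in the inputs (3.51 ± 0.25), and it also holds 1 copy, in its 3′ UTR.

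Glycolysis and fermentation gave a contrast with the mock. Of 14 enzymes tested of 15 listed, 12 were lower in the Zfs1 IP and none higher (35.3% and 28.3% over all transcripts). Their median was −1.78, while the same 14 had a median of 0.85 in the GFP IP. By the contrast 13 of the 14 were less enriched with Zfs1 than with GFP (26.6% over all transcripts), the exception being adh1. The tdh1 mRNA, for glyceraldehyde-3-phosphate dehydrogenase, had 28737, 97797 and 52885 scaled counts in the Zfs1 IPs and 149186, 373270 and 354354 in the inputs (−2.35 ± 0.41, n = 3; limma adjusted p = 0.00233). It was 0.89 in the GFP IP. The exceptions were pfk1 (phosphofructokinase) and adh1. The pfk1 mRNA had 18092, 43350 and 26977 in the IPs against 24364, 38138 and 38686 in the inputs. That was a difference within its own spread (−0.25 ± 0.38, limma adjusted p = 0.452). The adh1 entry was listed with at most 58.2 scaled counts in any library, and the reason for these low counts was not tested. With every library at an equal total none of the 14 passed as lower, and the median was −1.33. The same scaling left 2 translation factors, 5 respiratory and 1 proteasome transcripts passing as lower.

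Respiratory chain and ATP synthase mRNAs (40 of 60 lower, 6 higher, median −1.39) and proteasome mRNAs (33 of 44 lower, 5 higher, median −1.23) were depleted as well. The shares over all transcripts were 35.3% lower and 28.3% higher. The rpn10 mRNA, for the ubiquitin receptor of the proteasome, had 295, 190 and 196 scaled counts in the IPs and 1264, 938 and 927 in the inputs (−2.21 ± 0.11, n = 3). The higher members included fub1 (2.88), which the list caught as a proteasome inhibitor protein, and the assembly chaperone pac4 (0.98). Of the actin and tubulin group 7 of 8 were lower and 1 higher (median −1.13). The act1 mRNA had 12216, 24193 and 15098 in the IPs and 39137, 46398 and 49371 in the inputs (−1.44 ± 0.44; limma adjusted p = 0.00355), and atb2, for α-tubulin 2, had 1049, 2957 and 1727 in the IPs and 2586, 3606 and 3586 in the inputs (−0.88 ± 0.53; adjusted p = 0.0118). The values of atb2 overlapped, IP 2 being higher than input 1, and it did not pass without experiment 3 (−0.80, limma adjusted p = 0.0659) or without the pairing (−0.88, limma adjusted p = 0.0844). Neither act1 nor atb2 passed with the values as deposited or with equal totals, at the same sign. Their GFP ratios were 0.67 and 1.19. The 1 higher member was gtb1, for γ-tubulin (0.94). Amino acid synthesis (43 of 72 lower, 10 higher, median −0.88) held both directions, with hom2 (aspartate semialdehyde dehydrogenase) at −2.24 and met1 (uroporphyrin methyltransferase) at 3.01.

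Stable non-coding RNAs that work in RNA processing were mostly lower in the IP. The rrk1 transcript, the catalytic RNA of RNase P, was the most depleted of the transcripts that passed the rule for naming. It had 176, 259 and 211 scaled counts in the IPs and 9676, 8898 and 9744 in the inputs (−5.46 ± 0.34, n = 3; limma adjusted p = 2.52e-05), against −0.01 in the GFP IP. The related RNA of RNase MRP, mrp1, had 321, 845 and 695 in the IPs and 8206, 5820 and 8717 in the inputs (−3.70 ± 0.95), against 0.57 in the GFP IP. Of 14 small nucleolar RNAs tested of 53 listed, which guide the modification of ribosomal RNA, 11 were lower and none higher (35.3% and 28.3% over all transcripts). Their median was −2.15 in the Zfs1 IP and 0.58 in the GFP IP. The snR98 RNA, for example, had 171, 109 and 183 in the IPs and 1507, 2185 and 2407 in the inputs (−3.72 ± 0.59). The snu1 RNA (U1 of the spliceosome) had 94.3, 99.6 and 54.9 in the IPs and 1333, 863 and 1032 in the inputs (−3.71 ± 0.56). It was the lowest of the 5 small nuclear RNAs tested, a list that also holds copies of U3, of which 2 were lower and none higher (median −0.84). The other 3 (snu2, snu3 and snu32) had ratios between −0.84 and −0.62, were positive in experiment 2 and did not pass, at limma adjusted p-values between 0.0845 and 0.223. Ribosomal RNA gave 7 lower of 13 tested, but its repeats carried identical values and its ratios rested on input 1. The 28S repeat SPRRNA.49 had 7785, 1317 and 741 in the IPs and 5107236, 13045 and 2326 in the inputs. The ratios were −9.36, −3.31 and −1.65 in experiments 1 to 3, and the call was lost without the pairing (limma adjusted p = 0.171). No transfer RNA had a mean of at least 1 CPM.

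The class median of the long non-coding RNAs changed sign with the scaling. Of 955 tested of 1540, 217 (22.7%) were higher and 150 (15.7%) lower, against 28.3% and 35.3% over all transcripts. The median was 0.02 (0.44 with equal totals and −0.21 with the values as deposited). These RNAs were sparse, with a median of 4.17 CPM in the input. In the GFP IP the median was −0.74, and 159 were enriched more and 43 less than there. The contrast called 20.2% of all transcripts as more and 26.6% as less enriched. SPNCRNA.1197 on chromosome III had 1241, 2319 and 1605 scaled counts in the IPs and 25.8, 16.1 and 16.1 in the inputs (6.39 ± 0.79, n = 3; limma adjusted p = 2.76e-05). SPNCRNA.210 had 463, 1386 and 674 in the IPs and 25.5, 26 and 16.6 in the inputs (5.02 ± 0.80). Both were picked for their high ratios, so the gap to their inputs describes the choice. SPNCRNA.639 was among the lowest 15 (−4.51 ± 3.44), and its IP values of 5.36, 597 and 411 against 2269, 2977 and 2767 in the inputs show that experiment 1 decides the size. The same holds for SPAC8C9.04, an uncharacterized protein listed at 0 in IP 1 and with 1886 and 1023 in IPs 2 and 3, against 354, 3479 and 3215 in the inputs, and for the transporter SPBPB10D8.05c. Without the pairing neither SPAC8C9.04 nor SPBPB10D8.05c passed (limma adjusted p = 0.297 and 0.318).

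Some groups held members in both directions, and over all transcripts tested 28.3% were higher and 35.3% lower. Among the 10 histone genes 3 were higher and 5 lower. The hhf2 mRNA (H4) had 6211, 14743 and 13855 scaled counts in the IPs and 2061, 2042 and 1902 in the inputs (2.44 ± 0.73, n = 3), htb1 (H2B) had a ratio of 1.57 and hht3 (H3) one of 1.50. The hht1 mRNA (H3) had 1414, 1254 and 987 in the IPs and 5979, 5787 and 5188 in the inputs (−2.23 ± 0.16), and hht2, hta1, hhf3 and hhf1 lay between −2.15 and −1.28. Genes of the same histone thus stood on opposite sides, although copies that share most of their coding sequence also share reads. In the GFP IP 6 of the 10 were lower too, with a median of −0.81. By the contrast 3 were enriched more and 3 less with Zfs1 than with GFP. The ratios of hhf3 and hhf1 did not differ from those of the GFP IP, −1.61 and −1.02 (limma contrast adjusted p = 0.652 and 0.56). Of 35 mRNA decay factors 12 were higher and 13 lower. The not11 mRNA, of the Ccr4-Not deadenylase, had 3123, 4205 and 2938 in the IPs and 194, 210 and 192 in the inputs (4.08 ± 0.21), while ccr4 of the same complex had 680, 894 and 759 in the IPs and 1738, 2157 and 2354 in the inputs (−1.42 ± 0.19). The decapping subunit dcp1 (3.03) and the exonuclease exo2 (1.97) were higher, and the Lsm ring subunits lsm4, lsm5 and lsm6 were lower (between −1.79 and −1.53). Among 36 stress response genes, with 13 higher and 15 lower, trr1 (thioredoxin reductase) was at 2.76 while the peroxidases tpx1 and gpx1 were at −2.03 and −2.05. Chaperones (25 of 101 higher, 45 lower) held ssa1 at 3.31 and the chaperonin subunit cct2 at −2.69.

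Transcripts of the mitochondrial genome had the highest class median in the Zfs1 IP and one of the lowest in the GFP IP. Of 10 tested of 11, 6 were higher in the Zfs1 IP and 2 lower (28.3% and 35.3% over all transcripts). Their median was 2.48 in the Zfs1 IP and −2.04 in the GFP IP. They are named by identifier only. SPMIT.04 had 554482, 101657 and 240918 scaled counts in the Zfs1 IPs and 30960, 8732 and 7412 in the inputs, a log2 ratio of 4.24 ± 0.74 (n = 3; limma adjusted p = 0.000125) with no overlap. Its ratios in the 3 GFP experiments were −1.63, −2.35 and −2.48, and the difference between the 2 enrichments was 6.38 (contrast adjusted p = 7.22e-05). SPMIT.01 had 761940, 412909 and 973305 in the IPs and 61964, 41999 and 38364 in the inputs (3.86 ± 0.71), and averaged 60000 CPM in the IPs against 2930 CPM in the inputs. SPMIT.02, SPMIT.03 and SPMIT.11 were enriched in every experiment too, with ratios between 2.55 and 3.20, and were depleted in every GFP experiment. SPMIT.06 went the other way, with 32699, 22914 and 27350 in the IPs and 243238, 130537 and 121651 in the inputs (−2.52 ± 0.37), as did SPMIT.10 (−1.54), and both were also low in the GFP IP. In the total RNA the log2 ratios of zfs1Δ over wild type for these 10 transcripts lay between −0.40 and 0.27, with a median of −0.09.

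**Figure D3:**
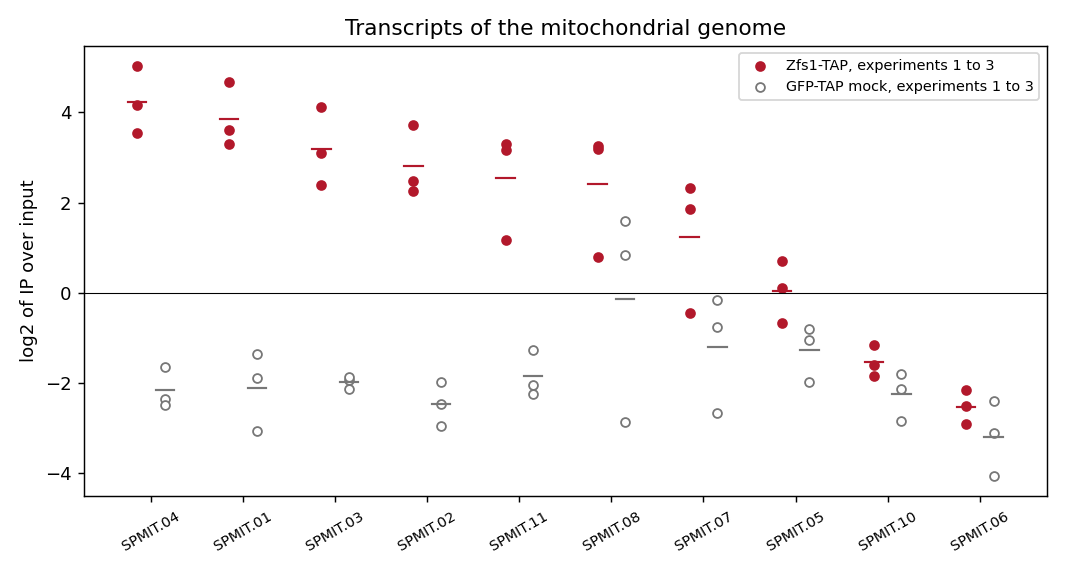
Log2 of IP over input for each of the 10 mitochondrial transcripts tested, one point per experiment with lines at the means: Zfs1-TAP (filled, left) and GFP-TAP mock (open, right). For SPMIT.04, SPMIT.01, SPMIT.03, SPMIT.02 and SPMIT.11 all Zfs1 points lie above 0 and all GFP points below it, while for SPMIT.06 and SPMIT.10 both sets lie below 0.

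The nonamer shown above followed the IP ratio closely. Of 1097 protein-coding transcripts at least 2-fold higher in the Zfs1 IP, 437 (39.8%) carried it on the sense strand, against 10 of 1284 (0.779%) at least 2-fold lower ones and 564 of 4906 (11.5%) of all tested. On the antisense strand the shares were 4.1%, 4.36% and 4.5%. Among the enriched transcripts 10.1% had it in the 5′ UTR, 13.3% in the coding sequence and 18.4% in the 3′ UTR, against 2.53%, 3.67% and 5.77% of all coding transcripts tested. The density was 0.462 copies per kb of 5′ UTR, 0.0847 per kb of coding sequence and 0.55 per kb of 3′ UTR in the enriched set, against 0.185, 0.0269 and 0.169 over all.

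The ratio also followed the number and the place of the copies. Coding transcripts without a copy (4342) had a median log2 ratio of −0.41, and 22.2% were higher in the IP. With 1 copy (477) the median was 1.83 and 83.4% were higher, with 2 copies (72) 3.03 and 95.8%, and with 3 or more (15) 3.23 and 100%. Where the single copy lay in the 5′ UTR (96 transcripts) the median was 2.49, in the coding sequence (156) 1.73 and in the 3′ UTR (225) 1.59. The medians of the GFP IP lay between −0.04 and 0.23 in all of these groups. Transcripts with a copy were also longer, and the gap between those with and those without was present in each of the 4 equal bins of length. The medians were 2.34 with and −1.02 without a copy in the shortest bin (up to 1152 bases), and 2.11 with and 0.08 without in the longest (from 2516 bases). Non-coding RNAs with a copy (90) had a median of 1.12, and those without (826) one of −0.05.

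**Figure D4:**
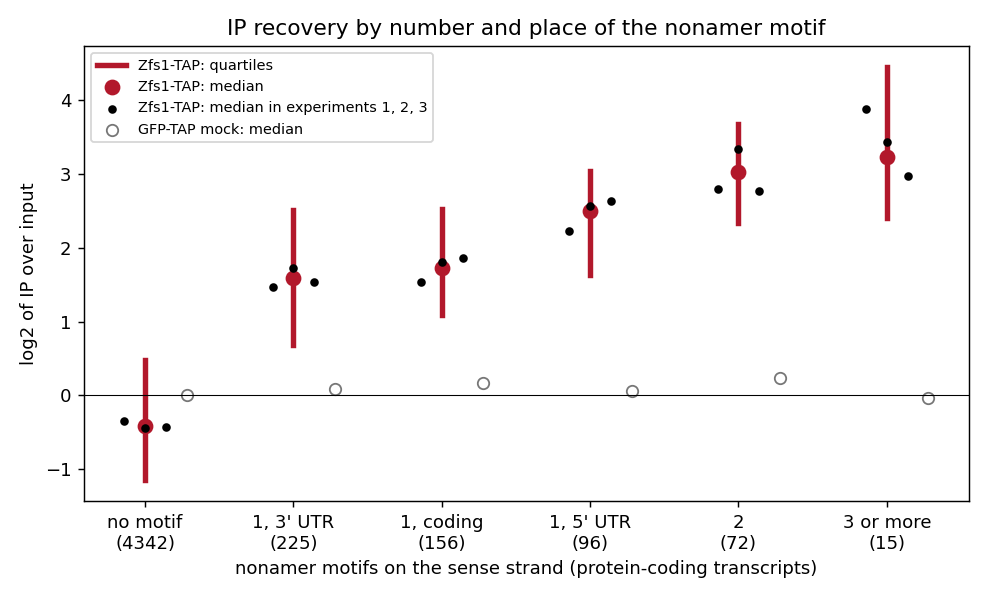
Log2 of IP over input of protein-coding transcripts by number and place of the nonamer, with the number of transcripts in brackets: large points are Zfs1-TAP medians with lines between the quartiles, small points the medians of experiments 1 to 3, open points the GFP-TAP medians. The Zfs1 median is −0.41 without the element, between 1.59 and 2.49 with 1 copy and 3.23 with 3 or more, and the GFP medians stay between −0.04 and 0.23.

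The relation had exceptions on both sides. Of the 1447 coding transcripts called higher, 965 carried no copy in the annotated transcript, pat1, ste11, ecl3 and rec10 included. On the other side 22 coding transcripts with a copy were lower in the IP. They included the ribosomal protein mRNAs rps1702 (−1.96), rpl702 (−1.82) and rpl6 (−0.64), the Hsp90 co-chaperone cdc37 (−1.76) and the phospholipid synthesis gene ept1 (−1.54), each with 1 copy in the 3′ UTR. By the contrast rps1702, rpl702 and ept1 were enriched less than in the GFP IP. The cdc37 and rpl6 mRNAs, with GFP ratios of −2.31 and −0.03, did not differ from it (limma contrast adjusted p = 0.387 and 0.144). A motif match shows only that these letters are in the annotated transcript.

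Enriched and depleted mRNAs differed in build. The at least 2-fold enriched coding transcripts had a median length of 2064 bases with a 5′ UTR of 147 bases, and 60.8% had no intron, against 1207.5 bases, 49 bases and 43.2% for the depleted ones. Their median level in the input was 34.7 CPM, against 68.8 for the depleted set. The input level is the denominator of the ratio and is not independent of it. Ribosomal protein transcripts were short, with a median of 620.5 bases. Set against coding transcripts in the same length bin (10 bins), their median ratio was lower by 0.94 on the log2 scale, that of glycolysis by 1.29 and that of translation factors by 0.94 (medians of the differences −0.94, −1.29 and −0.94), whereas that of the mating and meiosis regulators was higher by 1.51 and that of the cyclins by 1.66. This comparison was added after the class values were seen. Length and input level moved with the ratio, and their part in the class medians was otherwise not tested.

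Transcripts with a high IP ratio were more often higher in the strain without Zfs1. With the coding transcripts in 10 equal bins by ratio, the share with the nonamer was at most 2.65% in the 6 lowest bins and 55.4% in the highest. The share that was higher in zfs1Δ than in wild type in both RNA-Seq experiments, after median centring, was 11.5% in the lowest bin, 80.9% in the highest and 42.2% over all measured. The median log2 of zfs1Δ over wild type was −0.10 in the lowest bin and 0.30 in the highest. Of the 13 transcripts among the highest 15 that were measured there, 13 were higher in both experiments, with arz1 at 2.25 and 2.24, SPAC1B3.15c at 2.12 and 2.07 and oxr1 at 1.72 and 1.79, and of the 10 measured among the lowest 15, 2 were. The annotated zfs1 transcript has 4599 bases, of which 1215 are coding. Reads assigned to it were lower in the deletion strain (−0.82 and −0.89) but not absent, and the part they came from was not tested. Some mRNAs of mating and meiosis that were higher in the Zfs1 IP than in its input were lower in the deletion strain. Among them were ste11 (−3.72 and −3.75), mei2 (−3.79 and −3.56) and spk1 (−1.47 and −0.64), and the median over that class was −0.02. With 2 libraries a strain these are signs and shares, and no test was made of them.

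**Figure D5:**
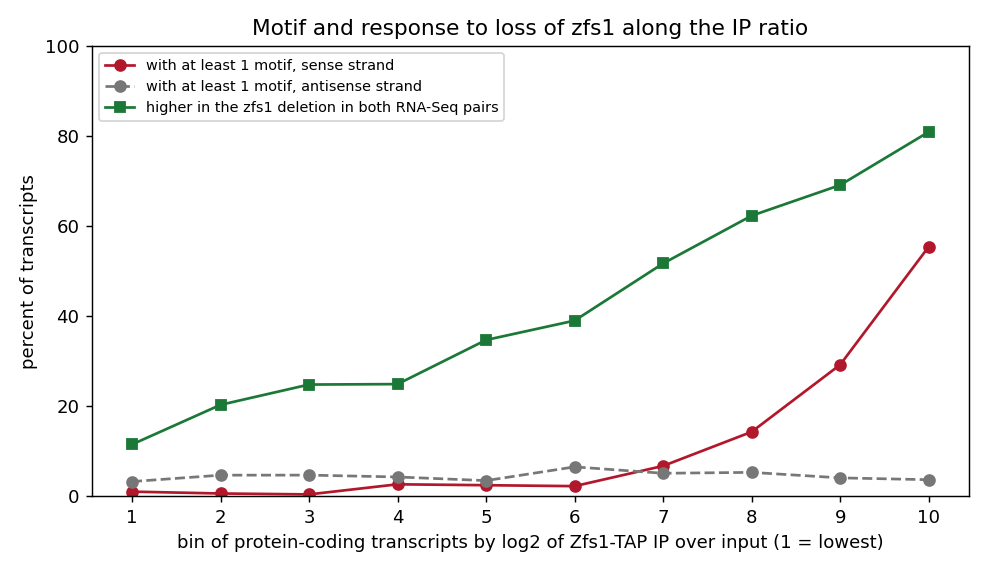
Percent of protein-coding transcripts in each of 10 equal bins of the Zfs1-TAP IP/input ratio (1 lowest, 10 highest) that carry the nonamer on the sense strand, carry it on the antisense strand, or are higher in zfs1Δ than in wild type in both RNA-Seq experiments. The sense share runs to 55.4% and the zfs1Δ share to 80.9% in the highest bin, and the antisense share stays between 3.26% and 6.52%.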

How the data were processed

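RNA captured with Zfs1-TAP or GFP-TAP on IgG beads, the matching inputs, and total RNA of zfs1Δ and wild type cells were sequenced as 100-base stranded paired reads after ribosomal RNA depletion. The deposited values are the authors' normalized signal: reads were aligned with Bowtie 0.12.7 and counted per transcript with RSEM 1.1.19, allowing mismatches, and normalized with edgeR. They are not whole numbers and whole reads could not be recovered, so no count model was used. Depth is known only through the normalized totals given above.

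Values under 1e-10 were set to 0 and each library was scaled to a common median over the transcripts tested (mean of at least 1 CPM over the 6 libraries). Log2(scaled value + 1) was fitted with limma 3.58.1 in R 4.3.3 with a mean-variance trend and the experiment as a block, two-sided, with Benjamini-Hochberg adjustment over all transcripts tested. Fold changes on this scale understate those of low transcripts. The GFP libraries were fitted alike, and the contrast of both enrichments used all 12 libraries. The design pairs each IP with the input of its own experiment. The correlations of deviations of same-numbered IP and input libraries were 0.58, 0.39 and 0.48. Those of IP 2 with input 3 and of IP 3 with input 2 were 0.43 and 0.30, so these values do not separate experiments 2 and 3, and the pairing rests on the labels. The study calls the experiments biological repeats. The script was tested on simulated data.

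The annotation was RefSeq ASM294v3, which matched 6848 of 7018 identifiers and is newer than the authors' own. The motif was searched on both strands of annotated transcripts. Transcripts named are the 15 highest and 15 lowest ratios among those called, with one sign in all experiments and at least 100 CPM, up to 4 at each end of a class (at least 20 CPM), and a few fixed genes. Others were named for their role after their values were seen. Members and lists were chosen with earlier results of these data known.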

Additional observations from a re-analysis of the deposited data

Results flagged for a closer look

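The contrast of the Zfs1 and GFP enrichments passed for 1201 transcripts enriched more and 1579 enriched less with Zfs1, so the 2 IPs differed beyond the spread between experiments (limma, adjusted p under 0.05). Among the transcripts named, 22 passed this contrast and also had opposite signs in every experiment of the 2 baits. On the log2 scale the difference, Zfs1 minus GFP, was 6.23 for ecl3 and 5.62 for oxr1. It was −7.49 for SPAC8C9.04, which was listed at 0 in IP 1, −2.13 for act1 and −2.08 for atb2. Other negative differences were −3.25 for tdh1, −3.13 for cct2, −2.72 for ccr4 and −1.48 for cbf11. Other positive ones were 6.24 for SPNCRNA.210, 3.92 for fub1, 3.73 for dcp1, 3.54 for hhf2, 2.53 for hht3, 2.07 for pac4, 1.83 for htb1 and 1.53 for rps1202. For the mitochondrial transcripts it was 6.38 for SPMIT.04, 5.94 for SPMIT.01, 5.26 for SPMIT.02, 5.16 for SPMIT.03 and 4.38 for SPMIT.11. Strain, mating type and promoter differ with the bait and cannot be told apart from it.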

How the results depend on the processing

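None of the highest, lowest and fixed transcripts changed sign under any alternative run, and 24 of 488 checks of single transcripts lost their call. The number of Zfs1 calls moved most with the scaling. Relative to median centring it shifted the median ratio by −0.22 (values as deposited), 0.45 (equal totals) and −0.14 (equal totals without ribosomal RNA). With the values as deposited the Zfs1 IP had 569 higher and 631 lower transcripts, the GFP IP had 430 lower, and 585 were more and 671 less enriched with Zfs1 than with GFP. With equal totals the Zfs1 IP had 950 higher and 188 lower, the GFP IP had 174 higher, and 102 less enriched with Zfs1 than with GFP. Equal totals without ribosomal RNA gave 208 higher and 883 lower in the GFP IP.

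By class, the values as deposited left 13 proteasome, 19 respiratory and 8 translation factor transcripts lower, and 28 transcription factors, 18 kinases, 35 transporters, 16 mating and meiosis regulators and 5 cyclins higher. Equal totals left 61 ribosomal protein, 6 small nucleolar, 0 glycolysis, 1 proteasome, 5 respiratory and 2 translation factor transcripts lower, and 40 transcription factors, 28 kinases, 54 transporters and 7 cyclins higher.

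The GFP calls were unstable. They were 1 higher and 3 lower without the trend, 1081 higher and 728 lower with array weights, and 135 lower with no filter and 394 lower at a mean of 10 CPM. Leaving out an experiment gave between 0 and 617 higher and between 0 and 271 lower GFP calls. The 0 were those without experiment 3, where 1654 transcripts had an unadjusted limma p under 0.05. Leaving out an experiment gave 1338 to 1797 higher and 1512 to 2213 lower transcripts for Zfs1, and 775 to 1207 more and 928 to 1450 less enriched with Zfs1 than with GFP. The low ends of that contrast were those without experiment 2, and 1007 were less enriched without experiment 3.

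Without the replicate block the Zfs1 IP had 1482 higher and 1810 lower transcripts, 1474 and 1800 of them shared with the paired fit. In the GFP IP 433 were higher and 151 lower, and 1065 were more and 1393 less enriched with Zfs1 than with GFP.

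The share of enriched transcripts with the motif was 18% in the 5′ UTR, 15.7% in the coding sequence and 26.5% in the 3′ UTR with the values as deposited. With equal totals it was 13% in the 5′ UTR and 22.3% in the 3′ UTR. With no minimum fold it was 8.22%, 11% and 15.7% in these 3 regions. Over the whole transcript it was 39.8% of enriched and 0.779% of depleted ones. Depleted transcripts held it in 0% of 5′ UTRs and coding sequences with the values as deposited and with equal totals, and in 0% to 0.0816% of 5′ UTRs when an experiment was left out.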
